A study of Homo sapiens with 12 samples.

Results

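A set of 47 genes of Toll-like receptor signaling and of the regulation of and response to NF-kB was described in HK-2 cells, of 58735 genes in the deposited table. The genes were chosen by name, from the receptors at the cell surface to the cytokines at the end of the pathway. They occupy 48 rows of the table, since SOD2 is listed under a pair of gene identifiers. HK-2 is an established, immortalized line of human proximal tubular epithelium. The samples fall into 4 groups of 3. The control group received water. The other groups received for 48 h either the iodinated contrast medium iohexol at 75 mg I/mL, the platinum-based tumor drug cisplatin at 5 μM, or the glycopeptide antibiotic vancomycin at 4 mM. All cells were grown in DMEM/F12 with fetal bovine serum and antibiotics, and each drug was given at a single dose. The labels do not say whether replicates were separate cultures, so that p-values measure the spread between these samples, which may be technical.

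Toll-like receptors recognize microbial molecules and molecules released by damaged cells. Most of them signal through the adaptor MYD88 and the IRAK kinases, and TLR3 through TICAM1, to TRAF proteins and the TAK1 and IKK complexes. IKK phosphorylates the IkB proteins, which hold NF-kB dimers in the cytoplasm, and their degradation frees NF-kB to enter the nucleus. Several IkB proteins and ubiquitin editors are themselves induced by NF-kB and close a negative feedback. Since this pathway acts largely through proteins, the level of an mRNA measured here is not the activity of its protein.

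Between 14057282 and 18177109 reads were counted per sample, and 3 counts, taken as the lowest reliable level, correspond to 0.165 to 0.213 CPM, the read count scaled to library size. This floor covers counting error only. Iohexol replicate 3 stood apart from its group, as its chi-square over genes, divided by the degrees of freedom, was 17.5 and 16.5 against the other iohexol samples and 3.82 between those. Control replicate 1 likewise gave 8.03 and 10.8, against 3.24 for the other control samples. The vancomycin samples also spread widely, with 13.1 between replicates 1 and 2, 9.66 between 2 and 3 and 6.24 between 1 and 3. Cisplatin pairs gave 2.34 to 2.66. Of 8 leukocyte markers, MS4A1 had 0 counts in every sample and PTPRC, the pan-leukocyte marker CD45, at most 5 counts. On the same list CSF1R had 92 to 227 counts per sample and ITGAM 0 to 33. The 8 markers, mostly CSF1R, summed to 13.7 to 16.5 CPM in the controls. The sums were 7.46 to 12.7 CPM (iohexol), 7.61 to 8.15 CPM (cisplatin) and 11.3 to 16.03 CPM (vancomycin). The epithelial markers KRT8, KRT18, KRT19 and EPCAM were counted in every sample, whereas CDH1, also on that list, had 0 to 8 counts. Among the proximal tubule markers SLC22A6 had 0 counts throughout and LRP2 at most 3, whereas GGT1 had 1677 to 6184 counts and ANPEP 3 to 79.

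Of the 48 entries, 39 entered the test with all 3 drugs, 3 with some of them and 6 with none because of low counts. Genes are called past the test at an adjusted p under 0.05 (edgeR's quasi-likelihood test, Benjamini-Hochberg over all genes tested), and DEGs when the log2 fold change was also above 1 or below -1. By these criteria 16 of the 42 members that entered any test were DEGs with at least 1 drug (38.1%), beside 31.2% of 16693 genes. Past the test with at least 1 drug were 39 (92.9%), beside 80.6%, and TIRAP, TRAF6 and MAP3K7 were tested with all 3 drugs and past it with none.

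In the iohexol group 4 of 40 tested entries were DEGs (10%), beside 5.28% of all genes tested, with 2 up-regulated and 2 down-regulated (background 4.02% and 1.25%). Past the test were 5 higher and 8 lower entries (32.5%), beside 21.0% of all genes (11.2% and 9.77%). In the cisplatin group 4 of 40 were DEGs (10%), beside a background of 16.3%, with 1 up-regulated and 3 down-regulated (background 7.62% and 8.72%). Past the test were 11 higher and 11 lower (55%), beside 59.8% (29.2% and 30.6%). The vancomycin group differed from both in its counts, with 13 DEGs of 42 tested (30.95%) beside a background of 18.5%. Of these 12 were up-regulated and 1 was down-regulated, where the background was 10.8% and 7.65%, and 26 entries were higher and 7 lower past the test (78.6%), beside 57.9% (29.0% and 28.8%). The median log2 fold change of the tested entries was -0.04 with iohexol, 0.01 with cisplatin and 0.54 with vancomycin, beside 0.01, 0.01 and -0.01 for all genes tested. CD14, TLR4, LY96 and IL1A passed the filter on low counts only through the vancomycin samples, which leaves 8 of the 12 up-regulated DEGs for which this did not hold. With iohexol the same applied to CD14 and leaves SOD2 of the 2 up-regulated DEGs. In bulk RNA, more RNA per cell and more cells with a given RNA cannot be told apart. Without iohexol replicate 3, the iohexol group had 3 up-regulated and 1 down-regulated DEGs, with 8 higher and 9 lower past the test. When control replicate 1 was left out, the counts with iohexol were 2 and 2 DEGs with 4 higher and 9 lower, and those with vancomycin 13 and 1 DEGs with 26 higher and 7 lower. With library totals in place of TMM factors, which moved the median of all genes with cisplatin by 0.22 on the log2 scale, 20 members were higher and 7 lower past the test with cisplatin.

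**Figure D1:**
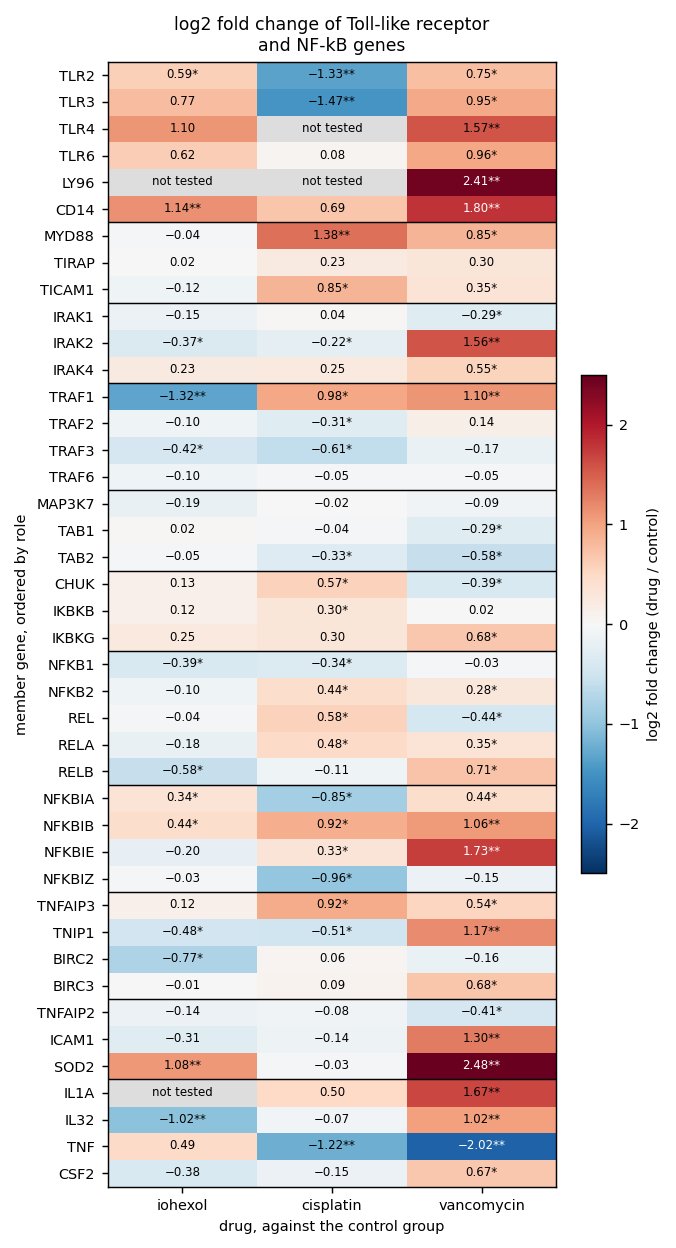
Log2 fold changes of the members tested in at least 1 comparison, as rows ordered by role, against the control group for each drug as columns (red higher, blue lower with the drug; 1 asterisk marks an adjusted p under 0.05 and 2 asterisks a DEG; gray cells were not tested). The vancomycin column holds 12 of the up-regulated DEGs, and TRAF1, TLR2 and IRAK2 change sign between columns.

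Levels per length in the control group differed widely among the members. In RPKM, the CPM divided by the gene's length in kilobases, IRAK1 was the most abundant member at 111 (96.8 to 118), followed by the atypical IkB protein NFKBIZ at 69.8, the adhesion molecule ICAM1 at 65.6, IL32 at 56.4 and NFKBIA at 51.0. Neighbors from NFKBIZ to NFKBIA overlapped in their ranges over samples, whereas IRAK1 lay above NFKBIZ in every sample. This order depends on the deposited lengths. SOD2, with 16493 bases, was at 16.8 RPKM, although its mean of 277 CPM exceeded the 243 CPM of ICAM1. Among the NF-kB subunits NFKB2 was at 43.2, RELB at 19.5, NFKB1 at 16.8, RELA at 13.2 and REL at 1.09. TLR2 was the receptor with the highest level, at 2.30 RPKM, ahead of TLR6 at 0.887 and TLR3 at 0.503 without overlap between TLR2 and TLR6. The co-receptors CD14 and LY96 were at 0.422 and 0.366, overlapping each other and TLR3. TLR1, TLR4 and TLR5 were at 0.0703, 0.0341 and 0.00853 RPKM. Members of other roles lay among these receptors, with IL1A at 0.315, IL1B at 0.0361, IRF4 at 0.0261 and TICAM2 at 0.0136. The last places therefore rest on a few counts each, and TLR1 and TLR6 share 9.06% and 9.30% of their 31-base sequences, mostly with each other.

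**Figure D2:**
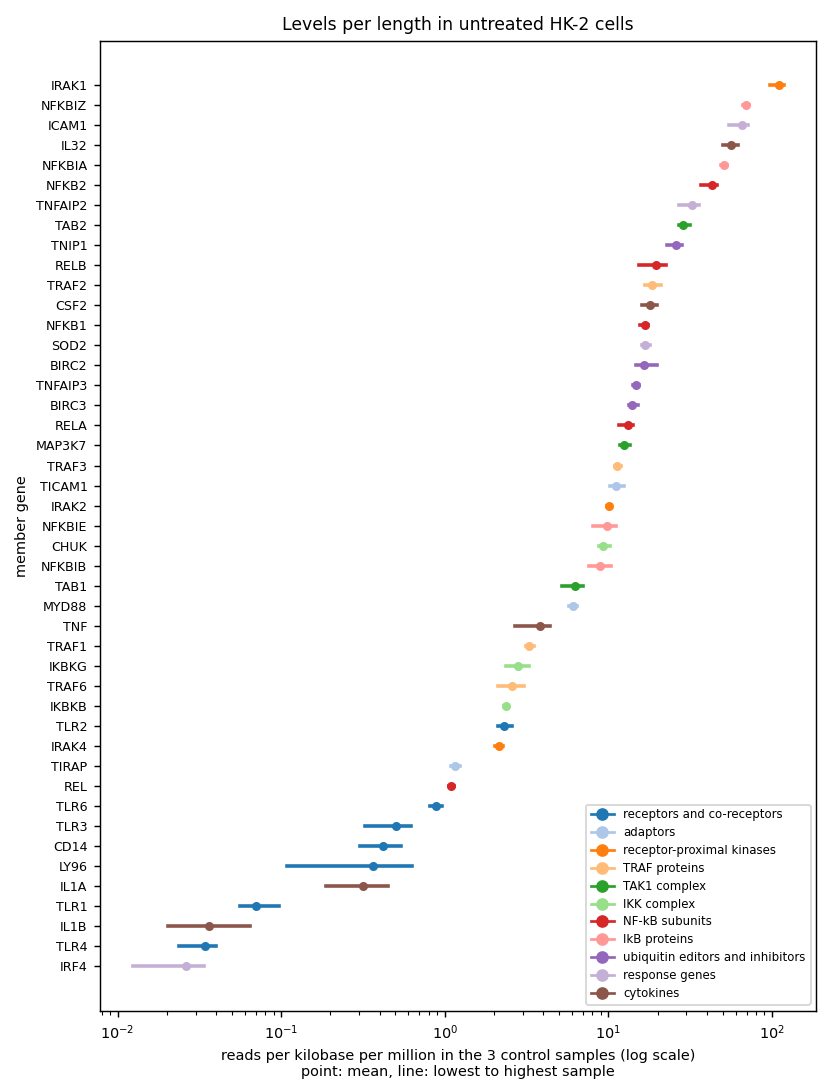
Level of the members in the 3 control samples in RPKM on a log scale, with the mean as a point, the lowest to highest sample as a line and the role as color. Entries with 0 counts in a control sample (TLR5, TICAM2 and the second SOD2 entry) are left out; IRAK1 lies at the top at 111 and the receptors other than TLR2 lie under 1.

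Among the receptors, TLR2, which binds bacterial lipoproteins as a dimer with TLR1 or TLR6, moved in opposite directions with the drugs. Its level was 13.5, 11.0 and 11.5 CPM in the control samples, 16.4, 17.6 and 18.8 with iohexol, 3.77, 5.02 and 5.35 with cisplatin and 20.5, 22.6 and 19.0 with vancomycin. The 4 groups did not overlap. TLR2 was a DEG with cisplatin (log2 fold change -1.33 ± 0.16 SE, adjusted p = 1.3e-06), and it was higher with iohexol (0.59 ± 0.14, adjusted p = 0.0099) and with vancomycin (0.75 ± 0.13, adjusted p = 3.7e-05). Its call with iohexol was lost in 2 of 15 alternatives (adjusted p up to 0.069). TLR3, an endosomal receptor of double-stranded RNA, was at 4.16, 3.81 and 2.18 CPM in the control samples, 7.18, 4.33 and 5.35 with iohexol, 1.08, 1.10 and 1.43 with cisplatin and 8.96, 5.05 and 5.99 with vancomycin. Every cisplatin sample lay below every control sample and every iohexol or vancomycin sample above. TLR3 fell with cisplatin (-1.47 ± 0.30, adjusted p = 0.00042) and rose with vancomycin (0.95 ± 0.25, adjusted p = 0.0023), while the value with iohexol was 0.77 ± 0.27 (adjusted p = 0.061). TLR6 rose with vancomycin (0.96 ± 0.17, adjusted p = 3.0e-05), and its values were 0.62 ± 0.22 with iohexol (adjusted p = 0.061) and 0.08 ± 0.17 with cisplatin (adjusted p = 0.71).

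TLR4, the receptor of lipopolysaccharide (ENSG00000136869, chromosome 9, 117704175 to 117724730 on GRCh38), was weakly counted. It had 7, 5 and 8 counts in the control samples, 12, 15 and 16 with iohexol, 17, 9 and 23 with cisplatin and 29, 16 and 20 with vancomycin. All 9 drug samples were above the controls. TLR4 was a DEG with vancomycin (1.57 ± 0.45, adjusted p = 0.0046), missed the threshold with iohexol (1.10 ± 0.42, adjusted p = 0.084) and was not tested with cisplatin, where 1 of the 3 samples was under the filter. Without the filter the value with cisplatin was 1.10 (adjusted p = 0.086), and in a fit of all 4 groups it was 1.13 (adjusted p = 0.042). TLR4 entered that fit, like the tests with iohexol and vancomycin, only through drug samples. The direct contrasts between drugs did not separate their TLR4 levels, with -0.04 ± 0.40 for iohexol against cisplatin, -0.53 ± 0.39 for iohexol against vancomycin and -0.48 ± 0.38 for cisplatin against vancomycin. TLR4 and IRF4 were singled out by the study on these same samples, so that their values here are not independent evidence of a direction.

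LY96 (MD-2) and CD14 are the partners of TLR4 in binding lipopolysaccharide. LY96 had 3, 6 and 1 counts in the control samples, 11, 17 and 8 with iohexol, 2, 0 and 5 with cisplatin and 18, 14 and 27 with vancomycin. The iohexol and vancomycin samples lay above the controls, while the cisplatin and control samples overlapped. LY96 was a DEG with vancomycin (2.41 ± 0.55, adjusted p = 0.00064) and did not enter the other tests. CD14 had 14, 9 and 12 counts in the control samples, 26, 23 and 28 with iohexol, 18, 16 and 29 with cisplatin and 59, 43 and 31 with vancomycin. Its log2 fold change was 1.14 ± 0.34 with iohexol (adjusted p = 0.036), 1.803 ± 0.37 with vancomycin (adjusted p = 0.00020) and 0.69 ± 0.39 with cisplatin (adjusted p = 0.13). In each of these tests CD14 passed the filter only through the drug samples. The call with iohexol was lost with DESeq2 (adjusted p = 0.072) and when a sample other than control replicate 1 was left out (adjusted p between 0.066 and 0.17). TLR1 had 4 to 6 counts in the control samples and 7, 22 and 22 with vancomycin, was not tested, and gave 1.71 (adjusted p = 0.011) without the filter. TLR5 had at most 3 counts in any sample.

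**Figure D3:**
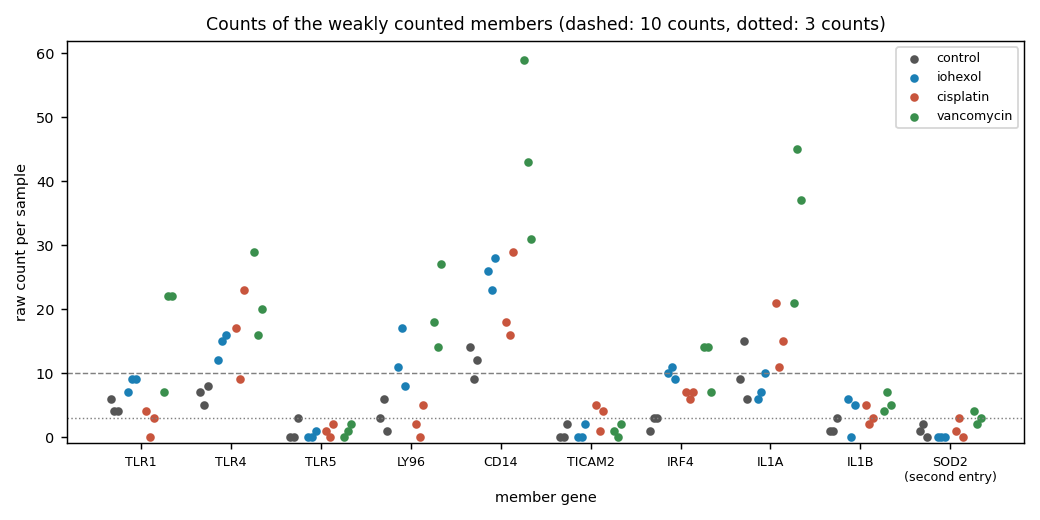
Raw counts of the weakly counted members in each of the 12 samples, colored by group, with dashed and dotted lines at 10 and 3 counts. TLR4 reaches 29 counts, IRF4 14 and CD14 59, each with vancomycin, and TLR5, TICAM2, IL1B and the second SOD2 entry stay under 10.

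The adaptor MYD88, used by nearly all Toll-like receptors and by the interleukin-1 receptors, was the only up-regulated DEG among the members with cisplatin. It was at 23.1, 23.5 and 25.7 CPM in the control samples and at 60.0, 64.9 and 61.0 with cisplatin, without overlap (1.38 ± 0.08, adjusted p = 1.8e-10). With vancomycin it was at 43.5, 43.3 and 46.7 CPM (0.85 ± 0.11, adjusted p = 3.4e-07), and the direct contrast placed cisplatin above vancomycin (0.48 ± 0.09, adjusted p = 8.3e-05). The iohexol samples, at 21.5, 23.2 and 24.0 CPM, overlapped the controls. TICAM1, the adaptor of TLR3 and of endosomal TLR4, also rose with cisplatin (0.85 ± 0.09, adjusted p = 2.0e-07). It rose less with vancomycin (0.35 ± 0.12, adjusted p = 0.017), with a direct contrast of 0.46 ± 0.13 (adjusted p = 0.0034). The TICAM1 call with vancomycin was lost in 4 of 15 alternatives (adjusted p up to 0.15). TIRAP, which bridges MYD88 to TLR2 and TLR4, was at 3.06 to 5.83 CPM over the 12 samples and past the test with none of the drugs. With cisplatin the RNA of TLR2 and TLR3 was thus lower while that of their adaptors MYD88 and TICAM1 was higher. TICAM2 had at most 5 counts and shares 92.6% of its 31-base sequences with other genes, chiefly the read-through gene TMED7-TICAM2.

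Of the IRAK kinases that bind MYD88, IRAK2 was a DEG with vancomycin. Its level was 34.1, 35.5 and 36.3 CPM in the control samples, 28.0, 27.1 and 24.8 with iohexol, 30.0, 30.3 and 29.5 with cisplatin and 95.8, 107 and 117 with vancomycin. The vancomycin samples lay above and both other drug groups below every control sample. The log2 fold change was 1.56 ± 0.10 with vancomycin (adjusted p = 3.4e-12), -0.37 ± 0.11 with iohexol (adjusted p = 0.028) and -0.22 ± 0.08 with cisplatin (adjusted p = 0.029). The call with iohexol was lost in 6 of 15 alternatives (adjusted p up to 0.11) and that with cisplatin in 7 of 15, with library totals at -0.0048 (adjusted p = 0.96). IRAK4, the kinase that starts the cascade, rose with vancomycin (0.55 ± 0.14, adjusted p = 0.0015), and the abundant IRAK1 fell (-0.29 ± 0.09, adjusted p = 0.0078).

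TRAF1, a member of the TRAF family that lacks the ubiquitin ligase domain and is a known NF-kB target, was down-regulated with iohexol and up-regulated with vancomycin. Its level was 20.4, 22.6 and 20.5 CPM in the control samples, 9.25, 7.39 and 8.19 with iohexol, 39.7, 42.1 and 41.8 with cisplatin and 46.0, 44.1 and 48.7 with vancomycin. The 4 groups did not overlap. The log2 fold changes were -1.32 ± 0.13 with iohexol (adjusted p = 3.8e-05), 0.98 ± 0.09 with cisplatin (adjusted p = 4.4e-08), just under the size of a DEG, and 1.10 ± 0.11 with vancomycin (adjusted p = 7.8e-09). TRAF1 crossed the DEG threshold with cisplatin in 3 alternatives, for example with library totals (1.19). TRAF3, a brake on noncanonical NF-kB signaling, fell with iohexol (-0.42 ± 0.09, adjusted p = 0.0061) and with cisplatin (-0.61 ± 0.07, adjusted p = 5.3e-07). TRAF2 fell with cisplatin (-0.31 ± 0.09, adjusted p = 0.0050). TRAF6, the ubiquitin ligase downstream of the IRAK kinases, stayed between 10.3 and 14.97 CPM over all samples and was past the test with none of the drugs.

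The kinase complexes showed small changes. MAP3K7, which encodes TAK1, was past the test with no drug, and its partner TAB2 was lower with cisplatin (-0.33 ± 0.07, adjusted p = 0.00050) and with vancomycin (-0.58 ± 0.09, adjusted p = 8.3e-06). TAB1 was lower with vancomycin (-0.29 ± 0.12, adjusted p = 0.044), although its samples overlapped the controls and the call was lost in 8 of 15 alternatives (adjusted p up to 0.198). Of the IKK complex, CHUK (IKK-alpha) rose with cisplatin (0.57 ± 0.08, adjusted p = 5.1e-06) and fell with vancomycin (-0.39 ± 0.10, adjusted p = 0.0027). IKBKB (IKK-beta) was higher with cisplatin (0.30 ± 0.09, adjusted p = 0.0068) and the regulatory subunit IKBKG (NEMO) with vancomycin (0.68 ± 0.14, adjusted p = 0.00030). IKBKG shares 35.5% of its 31-base sequences with other genes, mostly with its pseudogene IKBKGP1, which had 4 to 140 counts per sample, so its value is uncertain. None of these genes was past the test with iohexol.

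No NF-kB subunit was a DEG with any drug in comparison with the control group. With cisplatin RELA (0.48 ± 0.07, adjusted p = 2.7e-05), NFKB2 (0.44 ± 0.07, adjusted p = 5.1e-05) and REL (0.58 ± 0.12, adjusted p = 0.00045) were higher and NFKB1 was lower (-0.34 ± 0.07, adjusted p = 0.00064). With vancomycin RELB, the partner of the NFKB2 product p52 in the noncanonical pathway, was at 91.0, 102 and 104 CPM against 46.7, 63.2 and 68.1 in the control samples (0.71 ± 0.11, adjusted p = 8.9e-06). RELA (0.35, adjusted p = 0.0036) and NFKB2 (0.28, adjusted p = 0.018) were higher with vancomycin too. The NFKB2 call with vancomycin was lost in 4 of 15 alternatives (adjusted p up to 0.10). With iohexol RELB was at 44.4, 41.8 and 29.9 CPM (-0.58 ± 0.16, adjusted p = 0.026) and NFKB1 was lower as well (-0.39 ± 0.09, adjusted p = 0.0088). The RELB call with iohexol was lost in 2 of 15 alternatives (adjusted p up to 0.088). REL, higher with cisplatin, had the opposite direction with vancomycin (-0.44 ± 0.15, adjusted p = 0.018), a call lost in 2 of 15 alternatives (adjusted p up to 0.12). Its direct contrast of cisplatin against vancomycin was 0.99 ± 0.17 (adjusted p = 5.0e-05). REL shares 45.9% of its 31-base sequences with other genes, chiefly the overlapping AC010733.2, which had 0 counts in every sample.

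The IkB proteins are both inhibitors of NF-kB and, for some members, its targets. NFKBIE (IkB-epsilon) was at 20.7, 28.7 and 26.3 CPM in the control samples, 24.0, 21.8 and 18.4 with iohexol, 29.9, 31.6 and 32.6 with cisplatin and 76.4, 91.6 and 89.4 with vancomycin. It was a DEG with vancomycin (1.73 ± 0.12, adjusted p = 8.7e-12), whereas the cisplatin samples lay just above the controls (0.33 ± 0.11, adjusted p = 0.015) and the iohexol samples overlapped them. NFKBIB (IkB-beta) was higher past the test with each of the 3 drugs, with iohexol only narrowly. Its level was 17.8, 24.2 and 20.1 CPM in the control samples, 31.7, 26.3 and 24.3 with iohexol, 34.9, 40.3 and 41.2 with cisplatin and 39.6, 47.8 and 45.1 with vancomycin. Every drug sample was above every control sample, by 0.44 ± 0.14 with iohexol (adjusted p = 0.048), 0.92 ± 0.11 with cisplatin (adjusted p = 1.3e-06) and 1.06 ± 0.12 with vancomycin (adjusted p = 8.4e-08) on the log2 scale. The call with iohexol was lost in 6 of 15 alternatives (adjusted p up to 0.19), among them the fits without control replicate 1 or iohexol replicate 1. With vancomycin NFKBIB was under the DEG size without control replicate 1 (0.96) and with library totals (0.98).

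NFKBIA (IkB-alpha), the inhibitor that is degraded and resynthesized first after stimulation, fell with cisplatin from 117 to 127 CPM in the control samples to 64.3 to 67.3 CPM (-0.85 ± 0.07, adjusted p = 5.2e-09). It rose with vancomycin (0.44 ± 0.09, adjusted p = 0.00015) and with iohexol (0.34 ± 0.10, adjusted p = 0.031), where the call was lost in 6 of 15 alternatives (adjusted p up to 0.13). NFKBIZ (IkB-zeta), a nuclear cofactor of NF-kB at selected genes, fell with cisplatin from between 392 and 427 CPM to between 203 and 217 (-0.96 ± 0.06, adjusted p = 2.25e-10) and was past the test with neither of the other drugs. Cisplatin samples thus held less NFKBIA and NFKBIZ RNA and more NFKBIB and NFKBIE RNA than the controls.

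Of the ubiquitin editors, TNIP1 (ABIN-1), a ubiquitin-binding partner of A20, had opposite directions. It was at 132, 157 and 163 CPM in the control samples, 114, 108 and 93.5 with iohexol, 106, 107 and 102 with cisplatin and 334, 347 and 361 with vancomycin. The vancomycin samples lay above and the samples of the other drugs below all controls. TNIP1 was a DEG with vancomycin (1.17 ± 0.09, adjusted p = 1.2e-10) and was lower with iohexol (-0.48 ± 0.11, adjusted p = 0.0078) and cisplatin (-0.51 ± 0.07, adjusted p = 1.5e-05). TNFAIP3, which encodes A20, a deubiquitinase that ends NF-kB signaling, was higher with cisplatin (138, 144 and 135 CPM against 71.4, 77.3 and 74.1, 0.92 ± 0.06, adjusted p = 1.5e-09) and with vancomycin (0.54 ± 0.09, adjusted p = 1.9e-05). The ubiquitin ligase BIRC2 (cIAP1) fell with iohexol (-0.77 ± 0.13, adjusted p = 0.0015) and BIRC3 (cIAP2) rose with vancomycin (0.68 ± 0.09, adjusted p = 1.2e-06).

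The response genes held the member with the smallest p of the 3 comparisons, SOD2, the manganese superoxide dismutase of mitochondria and a known NF-kB target (ENSG00000112096, chromosome 6, 159669057 to 159745186). It was at 296, 271 and 264 CPM in the control samples, 570, 570 and 574 with iohexol, 269, 271 and 264 with cisplatin and 1595, 1719 and 1420 with vancomycin. The iohexol and vancomycin groups lay apart from the controls and from each other, and the cisplatin samples overlapped the controls. The log2 fold change was 1.08 ± 0.08 with iohexol (adjusted p = 3.1e-06) and 2.48 ± 0.09 with vancomycin (adjusted p = 2.8e-16), which ranked 26 among all genes by p, and -0.03 ± 0.06 with cisplatin. The second entry, ENSG00000285441, had at most 4 counts, and 23.5% of the 31-base sequences of the first occur in other genes. ICAM1, the adhesion molecule for leukocyte integrins, was at 202, 266 and 261 CPM in the control samples, 205, 213 and 154 with iohexol, 214, 221 and 222 with cisplatin and 590, 581 and 661 with vancomycin. It was a DEG with vancomycin (1.30 ± 0.10, adjusted p = 8.4e-11), and the other groups overlapped the controls. An antisense gene, AC011511.5, overlaps ICAM1 and had 0 to 6 counts. TNFAIP2 was lower with vancomycin (-0.41 ± 0.10, adjusted p = 0.00086).

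IRF4, an interferon regulatory factor of lymphocytes that NF-kB can induce (ENSG00000137265, chromosome 6, 391739 to 411447), had 1, 3 and 3 counts in the control samples, 10, 11 and 9 with iohexol, 7, 6 and 7 with cisplatin and 14, 14 and 7 with vancomycin. Every drug sample was above every control sample, and the control samples were at or under the floor of 3 counts. IRF4 did not pass the filter in any comparison. Without the filter its log2 fold change was 2.03 with iohexol (adjusted p = 0.057), 1.31 with cisplatin (adjusted p = 0.28) and 2.16 with vancomycin (adjusted p = 0.016). In the fit of all 4 groups these were 2.04 (adjusted p = 0.013), 1.33 (adjusted p = 0.078) and 2.21 (adjusted p = 0.0026). IRF4 passed the filter of that fit only through drug samples, so these p-values are no independent support for a rise.

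Among the cytokines, IL32, a proinflammatory cytokine of epithelial and lymphoid cells, moved in opposite directions with iohexol and vancomycin. It was at 161, 200 and 183 CPM in the control samples, 92.8, 96.6 and 71.1 with iohexol, 165, 169 and 177 with cisplatin and 341, 407 and 383 with vancomycin. The iohexol samples lay below and the vancomycin samples above the controls, with cisplatin overlapping them. Its log2 fold change was -1.02 ± 0.12 with iohexol (adjusted p = 0.00013) and 1.02 ± 0.09 with vancomycin (adjusted p = 1.9e-09). Both values are close to the DEG size and were under it with library totals (-0.95 and 0.95). The former was under it also without iohexol replicate 3 (-0.90) or control replicate 2 (-0.97), and the latter without control replicate 1 (0.95) or vancomycin replicate 2 (0.97). With vancomycin, where IL32 rose, TNF, the cytokine that itself activates NF-kB, fell. Its level was 4.53, 7.42 and 7.28 CPM in the control samples, 11.3, 7.96 and 7.20 with iohexol, 2.70, 3.06 and 2.44 with cisplatin and 2.00, 1.55 and 1.30 with vancomycin. TNF was down-regulated with cisplatin (-1.22 ± 0.22, adjusted p = 0.00010) and with vancomycin (-2.02 ± 0.26, adjusted p = 5.9e-07), without overlap with the controls in either group. With iohexol TNF missed the threshold (0.49, adjusted p = 0.14) and its samples overlapped the controls.

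IL1A, an alarmin released by damaged epithelium, had 9, 15 and 6 counts in the control samples, 6, 7 and 10 with iohexol, 21, 11 and 15 with cisplatin and 21, 45 and 37 with vancomycin. It was a DEG with vancomycin (1.67 ± 0.41, adjusted p = 0.0013), where it passed the filter only through the vancomycin samples, and with cisplatin gave 0.50 ± 0.43 (adjusted p = 0.33). CSF2 (GM-CSF) rose with vancomycin from 12.6, 14.3 and 15.7 CPM to 19.4, 25.3 and 24.6 CPM (0.67 ± 0.13, adjusted p = 0.00015). IL1B had at most 7 counts in any sample and was not tested.

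**Figure D4:**
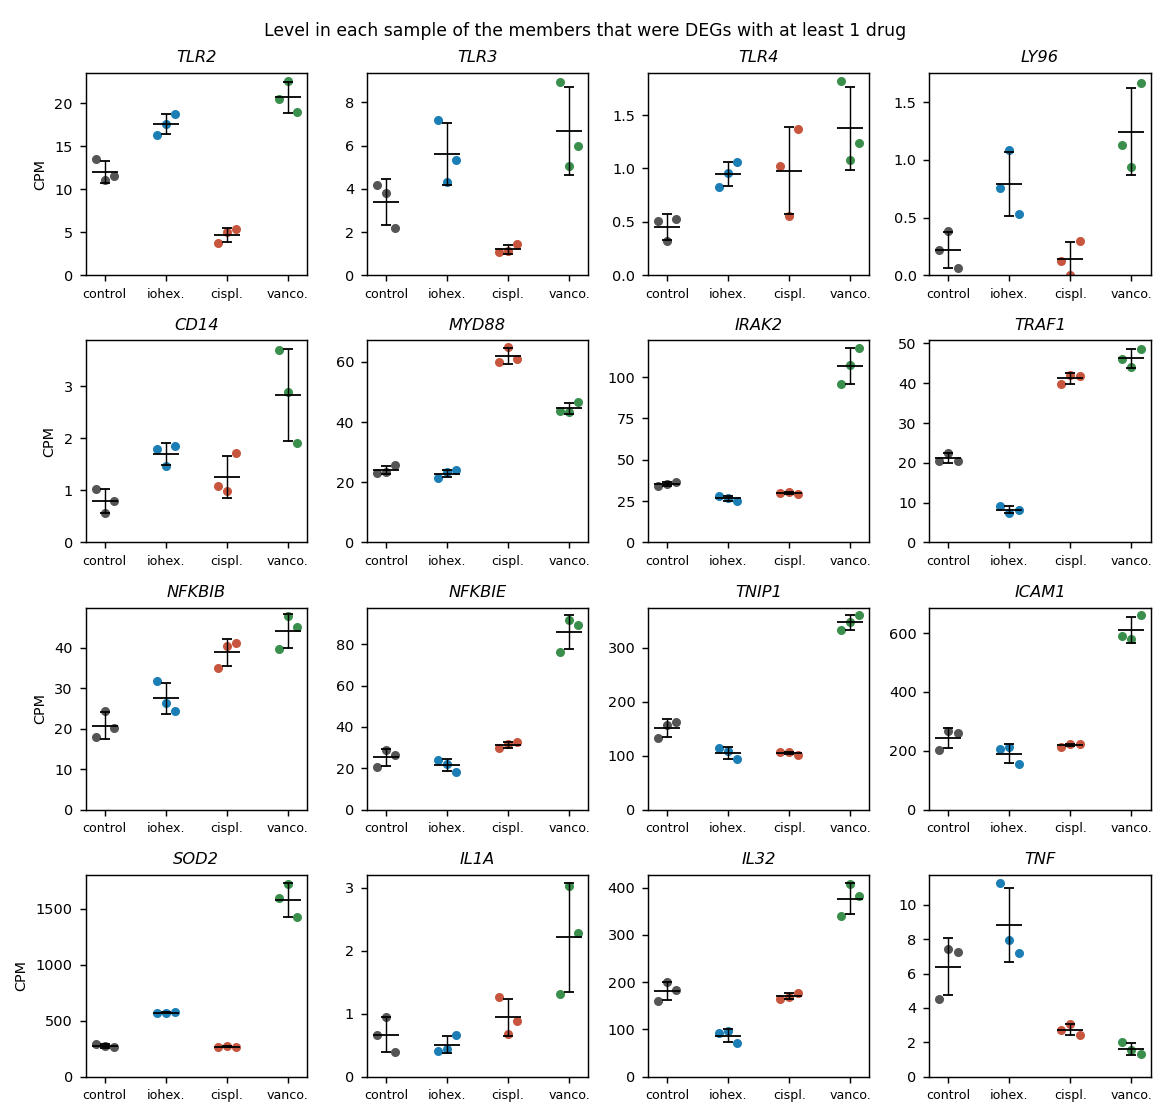
Level of the 16 members that were DEGs with at least 1 drug, in CPM in each sample by group (points), with the mean as a horizontal line and the SD as error bars (n = 3). SOD2 is highest with vancomycin at 1420 to 1719 CPM, TRAF1 lies below the controls with iohexol only, and MYD88 is highest with cisplatin at 60.0 to 64.9 CPM.

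Promoters are shown for 4 of the genes up-regulated with vancomycin. TNIP1, NFKBIB and IL32 hold an exact match to the kappa-B consensus, the sequence to which NF-kB dimers bind. ICAM1, a DEG of similar size, holds no exact match. TNIP1, NFKBIB and IL32 each have another promoter in RefSeq, without a match. The kappa-B consensus of 10 letters was searched on both strands in the 250 bases before each transcript start of RefSeq (GRCh38.p14), and the bases of any match are in capitals, overlapping matches as 1 run. Each sequence runs 5′ to 3′ on the strand of its gene.
TNIP1, chr5:151081035-151081284, minus strand: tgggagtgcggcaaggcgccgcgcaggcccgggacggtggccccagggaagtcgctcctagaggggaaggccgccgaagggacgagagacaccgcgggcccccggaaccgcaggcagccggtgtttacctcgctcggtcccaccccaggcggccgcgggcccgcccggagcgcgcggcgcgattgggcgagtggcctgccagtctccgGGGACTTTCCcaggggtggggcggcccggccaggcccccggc
NFKBIB, chr19:38899719-38899968, plus strand: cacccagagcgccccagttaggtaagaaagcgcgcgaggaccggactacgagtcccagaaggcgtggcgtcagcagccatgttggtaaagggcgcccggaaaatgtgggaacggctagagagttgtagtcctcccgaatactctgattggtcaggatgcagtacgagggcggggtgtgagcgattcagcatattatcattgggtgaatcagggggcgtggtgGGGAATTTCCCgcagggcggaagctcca
IL32, chr16:3065153-3065402, plus strand: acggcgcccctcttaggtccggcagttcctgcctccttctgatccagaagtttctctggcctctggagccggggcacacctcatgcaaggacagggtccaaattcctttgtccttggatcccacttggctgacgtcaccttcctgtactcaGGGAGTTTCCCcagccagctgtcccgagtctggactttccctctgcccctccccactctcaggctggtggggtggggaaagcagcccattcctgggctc
ICAM1, chr19:10270870-10271119, plus strand: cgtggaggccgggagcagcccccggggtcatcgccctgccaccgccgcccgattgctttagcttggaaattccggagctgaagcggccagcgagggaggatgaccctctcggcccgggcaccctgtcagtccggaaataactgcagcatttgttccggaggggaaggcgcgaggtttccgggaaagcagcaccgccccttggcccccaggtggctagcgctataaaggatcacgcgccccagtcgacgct
The first base of the match lay 42 bases before the start in TNIP1, whereas NFKBIB and IL32 each held overlapping matches from 28 and 99 bases before it. Of 41 member genes with an entry, 12 held a match (29.3%), beside 1715 of 27305 genes (6.28%). The 12 were TNIP1, NFKBIB, IL32, NFKBIA, NFKBIZ, TNFAIP3, BIRC3, TRAF3, TICAM1, NFKB1, NFKB2 and REL, and as known genes of this pathway they were not chosen apart from what is known of NF-kB. Counted by promoter, 3 of 19 promoters of the DEGs up-regulated with vancomycin held a match (15.8%) and 11 of 37 promoters of members that were no DEG (29.7%), beside 5.21% of all promoters. By direction, 8 of 23 members that rose with vancomycin held a match and 1 of 7 that fell. With cisplatin this was 5 of 9 that rose and 5 of 11 that fell, and with iohexol 2 of 5 that rose and 4 of 7 that fell. A match is a string of letters and not a measured binding site. Only exact matches were searched, so the lack of a match does not show the lack of a site. In the ICAM1 sequence the stretch tggaaattcc departs from the consensus in its first letter alone. Promoters of TLR1, LY96, TIRAP, IKBKB, RELB and NFKBIE were not used here.

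The 3 comparisons share the control samples, so that their calls are not independent of each other. Members higher past the test with 1 drug and lower with another were TLR2, TLR3, IRAK2, TRAF1, CHUK, RELB, REL, NFKBIA, TNIP1 and IL32, each with its values given above. The drug groups were also compared directly, without the controls.

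Between iohexol and cisplatin 8 of 43 tested members were DEGs (18.6%), beside 17.5% of all genes (11.4% higher with iohexol and 6.11% higher with cisplatin). Past the test were 9 higher with iohexol and 13 higher with cisplatin (51.2%), beside 54.0% (27.9% and 26.0%). DEGs higher with iohexol were TLR2 (1.90 ± 0.15, adjusted p = 1.3e-09), TLR3 (2.22 ± 0.30, adjusted p = 3.2e-06), LY96, NFKBIA, SOD2 and TNF, and higher with cisplatin were MYD88 (1.43 ± 0.09 in size) and TRAF1 (2.31 ± 0.11 in size). LY96 had 2, 0 and 5 counts with cisplatin and passed the filter of this fit only through iohexol and vancomycin samples. Between iohexol and vancomycin 11 were DEGs (25.6%), beside 20.1% (9.51% higher with iohexol and 10.6% higher with vancomycin). Past the test were 3 higher with iohexol and 23 higher with vancomycin (60.5%), beside 56.6% (27.6% and 29.0%). Of the DEGs, TNF was higher with iohexol (2.45 ± 0.25, adjusted p = 6.1e-08). The other 10 were higher with vancomycin, with the lowest p for TRAF1 (-2.47 ± 0.11, adjusted p = 3.3e-13, iohexol against vancomycin), and included IRAK2, RELB, NFKBIE, TNIP1, ICAM1, SOD2, IL1A, IL32 and CSF2. IL1A had 6, 7 and 10 counts with iohexol and passed the filter of this fit through samples of other groups. The 6 receptors tested missed the threshold in this contrast, CD14 by the least (-0.72 ± 0.31, adjusted p = 0.055), which does not show that their levels were alike.

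Between cisplatin and vancomycin 12 members were DEGs (27.9%), beside 28.5% of all genes (12.2% higher with cisplatin and 16.2% higher with vancomycin), and all 12 were higher with vancomycin. They were TLR2, TLR3, LY96, CD14, IRAK2, NFKBIA, NFKBIE, TNIP1, ICAM1, SOD2, IL1A and IL32. LY96, with 2, 0 and 5 counts with cisplatin, passed the filter only through vancomycin and iohexol samples. SOD2 had the lowest p (-2.55 ± 0.08, adjusted p = 1.6e-15, cisplatin against vancomycin), and the difference of TLR2 was -2.13 ± 0.15. With edgeR 0 members were DEGs higher with cisplatin, as also at an unadjusted p under 0.05 and with limma-voom. The count was 1 with DESeq2, with RLE factors, with at least 10 counts in every sample and in the fit of the 6 samples, and 3 with library totals, and REL was at 0.99 as reported above. Past the test were 9 higher with cisplatin and 22 higher with vancomycin (72.1%), beside 64.7% (30.0% and 34.7%). Higher with cisplatin without reaching the size of a DEG were among others CHUK (0.91 ± 0.10), MYD88, TICAM1 and TNFAIP3 (0.34 ± 0.08, adjusted p = 0.00053).

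A further 41 genes of the pathway, not among the members, held a smaller share of DEGs than all genes tested with each drug. PELI2, a ubiquitin ligase that acts on IRAK proteins, was the only one with iohexol (1.41 ± 0.23, adjusted p = 0.0012), or 3.03% of 33 tested beside 5.28%, and IRF7, a transcription factor of interferon induction, the only one with cisplatin (1.25 ± 0.11, adjusted p = 3.0e-08), or 3.03% of 33 beside 16.3%. Past the test were 3 higher and 2 lower with iohexol (15.2%, beside 21.0%) and 13 higher and 4 lower with cisplatin (51.5%, beside 59.8%). Vancomycin gave 5 up-regulated and 0 down-regulated DEGs of 34 tested (14.7%, beside 18.5%), with 19 higher and 4 lower past the test (67.6%, beside 57.9%). TNFRSF1B, the second TNF receptor, rose from a mean of 0.782 to 13.6 CPM (4.06 ± 0.24, adjusted p = 7.4e-13), and TNIP3, a relative of TNIP1, had 1 to 2 counts in the control samples and 18 to 40 with vancomycin, through which alone it passed the filter. PELI2 (1.97 ± 0.21), the IkB protein NFKBID (1.45 ± 0.14, adjusted p = 6.2e-09) and IRF7 (1.04 ± 0.13) were the others.

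Known NF-kB response genes outside the members did not share 1 direction. Of 19 tested with iohexol 4 were DEGs (21.1%, beside 5.28%). CXCL1 gave 1.63 ± 0.45 (adjusted p = 0.022) with 6, 4 and 4 counts in the control samples and 14, 17 and 13 with iohexol, and passed the filter only through the latter. The chemokine CCL20 (-1.87 ± 0.12, adjusted p = 7.3e-07), the adhesion molecule VCAM1 (-2.10 ± 0.15, adjusted p = 2.4e-06) and CD83 (-1.24 ± 0.13) were down-regulated. Cisplatin had 4 down-regulated and 0 up-regulated DEGs of 18 tested (22.2%, beside 16.3%), with CCL20 at -3.05 ± 0.12 (adjusted p = 5.35e-13), LTB at -3.26 ± 0.23, VCAM1 at -2.05 ± 0.13 and the weakly counted CCL2 at -1.46 ± 0.51. With vancomycin TNFRSF9 (2.37 ± 0.12, adjusted p = 4.6e-14) and NINJ1 (1.13 ± 0.10) were up-regulated and LTB (-2.55 ± 0.21) and BCL2L1 (-1.38 ± 0.10) down-regulated, which made 4 of 18 tested (22.2%, beside 18.5%). ICAM1 thus rose with vancomycin while the lymphotoxin gene LTB and TNF fell.

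Markers of cell types moved with the drugs too. The 4 fibroblast markers, none of them at 0, summed to 242 to 277 CPM in the vancomycin group, where the controls had 116 to 130, and to 106 to 115 (iohexol) and 104 to 110 (cisplatin) in the others. DCN (1.27 ± 0.12), LUM (1.14 ± 0.10) and PDGFRB (1.12 ± 0.42) were DEGs with vancomycin, whereas with cisplatin DCN was down-regulated (-2.19 ± 0.17) and PDGFRB up-regulated (1.15 ± 0.39). PDGFRB, with 8 to 10 counts in the controls, passed the filter only through the drug samples in both. The 5 epithelial markers summed to 767 to 861 CPM in the controls, and to 1216 to 1289 (cisplatin), 1230 to 1343 (vancomycin) and 627 to 769 (iohexol). With cisplatin KRT8 (0.77 ± 0.06) and KRT18 (0.90 ± 0.06) rose while EPCAM was a down-regulated DEG (-1.51 ± 0.08). The 8 proximal tubule markers, mostly GGT1, summed to 358 to 387 CPM in the vancomycin group, where the controls had 162 to 217, and to 119 to 180 (iohexol) and 165 to 184 (cisplatin). CUBN (1.48, adjusted p = 0.0096) and ANPEP (19 to 26 counts in the controls, 65 to 79 with iohexol) were up-regulated DEGs with iohexol. ANPEP was a down-regulated DEG with cisplatin (-1.57) and AQP1 an up-regulated DEG with vancomycin (1.67). CUBN and AQP1 passed the filter there only through the drug samples, and ANPEP with cisplatin only through the controls. PECAM1, an endothelial marker, had 16 to 22 counts in the controls, 0 to 3 with vancomycin and more with the other drugs, at 54 to 59 (iohexol) and 29 to 32 (cisplatin). The part of these markers in the changes of the members was not tested.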

How the data were processed

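RNA was measured by sequencing in 12 samples of HK-2 cells, 3 in each of 4 groups taken from the labels. The authors deposited whole-number counts of reads per gene, without normalization, and the gene length. Per the submitters' processing notes the tools were CASAVA 1.8, fastp, HISAT2 2.0.5, featureCounts 1.5.0-p3 and DESeq2 1.20.0, and libraries were made from poly(A) RNA with an NEBNext kit. The annotation release and the strand setting of the counting are not given in the sources used here, so reads of overlapping genes on opposite strands cannot be told apart. Gene positions are on GRCh38.

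Each drug group was fitted apart from the others together with the controls by edgeR 4.0.16 under R 4.3.3 (TMM factors, estimateDisp, glmQLFit, then glmQLFTest), after filterByExpr (minimum count 10, total 15). Contrasts between drugs came from a fit of all 12 samples. P-values were adjusted by Benjamini-Hochberg over all genes tested. The study used limma with an unadjusted threshold. The standard error is the log2 fold change divided by the square root of F. CPM use the total times the TMM factor of the 12 samples, and RPKM divide by the deposited length. Shared sequence is the percent of 31-base sequences of a gene's transcripts that occur in another gene. Promoters are from RefSeq (GRCh38.p14), which gave entries for 41 members, and some promoters are not reported here. The steps were tested on simulated counts.

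All members are named. DEGs, TLR4 and IRF4 are given in every sample, members not tested by their counts, and other genes of the pathway when they were DEGs, at most 5 per list. The members, lists and tests were chosen with earlier results of these data known. Alternatives were DESeq2 1.42.0, limma-voom (limma 3.58.1), RLE factors, library totals, no filter, at least 10 counts in every sample, another set of samples in the fit, the replicate number as a block, unadjusted p and leaving out each sample. Figures were drawn with matplotlib 3.10.9.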

Additional observations from a re-analysis of the deposited data

How the results depend on the processing

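Of 1015 recomputed values of members that were past the test, 954 kept their direction and their side of the threshold, 61 kept the direction only and 0 reversed, and 59 of 860 values that had missed the threshold or had not been tested passed it. The cause of these changes was not tested. The iohexol comparison was the least stable. Its up-regulated DEGs, 2 as reported, were 1 with DESeq2, without a filter, with at least 10 counts in every sample and with the replicate block, 4 in the fit of all 4 groups and 1 to 3 when each sample was left out; the down-regulated ones, also 2, were 1 with library totals and 1 to 2 when a sample was left out. Members higher past the test with iohexol (5) were 9 in the fit of all 4 groups, 9 at an unadjusted p, 2 with the replicate block and 1 to 8 when a sample was left out (1 without control replicate 3, 2 without control replicate 2 or iohexol replicate 2, 3 without iohexol replicate 1, 8 without iohexol replicate 3), and those lower (8) were 5 to 9, with 5 without control replicate 2.

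With cisplatin the up-regulated DEGs (1) were 5 with library totals, 2 with at least 10 counts in every sample, 2 in the fit of all 4 groups and 1 to 3 when a sample was left out, with 3 without control replicate 2 and 2 without cisplatin replicate 2. With library totals 20 members were higher and 7 lower past the test with cisplatin. Between iohexol and cisplatin the DEGs higher with cisplatin (2) were 4 with library totals and 2 to 4 when a sample was left out (4 without iohexol replicate 1), and those past the test 21 with library totals, with 7 higher with iohexol. Between iohexol and vancomycin 8 members were higher with iohexol past the test with library totals, beside 18 higher with vancomycin, and 3 to 6 when a sample was left out (6 without iohexol replicate 3). Between cisplatin and vancomycin the DEGs higher with cisplatin (0) were 1 with DESeq2, RLE factors, at least 10 counts in every sample and the fit of the 6 samples, 3 with library totals and 0 to 1 when a sample was left out (1 without cisplatin replicate 3, vancomycin replicate 1 or vancomycin replicate 3). Past the test 15 were higher with cisplatin with library totals, beside 16 higher with vancomycin. Library totals moved the median of all genes by 0.22 with cisplatin, 0.07 with iohexol and -0.08 with vancomycin, and by 0.33 between cisplatin and vancomycin.

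The up-regulated DEGs with vancomycin (12) were 13 to 16 when a sample was left out and 8 to 14 under the other alternatives. The fits without a sample tested 42 to 44 members, and TLR1 and IRF4, which the main fit did not test, were DEGs in some of them. Higher counts there thus include genes new to the test. Of the 13 DEGs with vancomycin in either direction, 11 remained without control replicate 1. The replicate numbers did not pair the samples: the deviations of same-numbered samples had a mean correlation of -0.02 over 18 pairs (-0.18 to 0.10), beside 0.01 over 36 other pairs. With the replicate block the vancomycin group kept counts of 12 and 1 DEGs and the cisplatin group 1 and 3. Depth limits the weakly counted members, since 3 counts correspond to 0.165 to 0.213 CPM and TLR4 and IRF4 had at most 29 and 14 counts.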
